A study of Mus musculus with 12 samples.

Results

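Saa3, Lcn2, Lrg1, Hp, Cp, Serpina3n and Orm1 encode acute-phase proteins that the lung can make locally. All probe sets annotated with exactly 1 of these 7 symbols were taken, which gave 14 of the 45101 probe sets on the array, 8 of them for Cp and 1 for each other gene. All 14 passed the filter on low signals, so all 7 genes were among the 17569 genes tested. For Cp the brightest probe set stood for the gene, and its other probe sets are described on their own.

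RNA came from the left lung of individual young adult male mice, and Affymetrix Mouse Genome 430 2.0 arrays were hybridised with the RNA of 1 mouse each. The 12 arrays formed 4 groups of 3. WT-Air and WT-O3 were wild-type mice (Nfkb1+/+, B6129PF2/J) in filtered air or after 0.3 ppm ozone (O3) for 48 h without a break, and Nfkb1KO-Air and Nfkb1KO-O3 were Nfkb1-deficient mice (Nfkb1-/-, allele Nfkb1tm1Bal, on a mixed background) with the same exposures. The deletion removes the p50/p105 subunit of NF-κB in all cells of the body, and the wild-type mice were an F2 stock rather than stated littermates. Air was given in a separate chamber, so exposure and chamber cannot be told apart. The annotation named 0 probe sets for Nfkb1, so the level of the deleted gene itself is not given, and no check of the genotype labels came from it. The question addressed by the design was how the NF-κB1 subunit alters lung transcripts at rest and under O3.

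Acute-phase proteins are secreted proteins whose plasma levels shift during inflammation. The liver is their best known source, where IL-6-type cytokines act through gp130, STAT3 and C/EBP factors and IL-1-type cytokines act through NF-κB. Airway epithelium, macrophages and other lung cells also make several of them, Saa3 and Lcn2 in particular. The p50 protein lacks a transactivation domain, so it activates transcription as a heterodimer with RelA and can repress it as a p50 homodimer.

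The arrays differed in ways other than the groups. The median deposited signal was 99.1 to 121 on 11 arrays and 180 on Nfkb1KO-Air replicate 1, whose rank correlation with the others was 0.916 to 0.930 against 0.947 to 0.970 among the rest. Spiked-in poly-A control transcripts had a mean log2 deposited signal of 8.84 ± 0.16 (SD, n = 6) on air arrays and 8.38 ± 0.25 (n = 6) on O3 arrays, and hybridisation controls 11.66 ± 0.09 and 11.43 ± 0.05. Both controls were thus lower on the arrays of exposed mice, and their part in the O3 differences of the acute-phase genes was not tested.

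Saa3, Lcn2, Lrg1 and Serpina3n were higher after O3 in wild-type mice, by 2.90-fold to 4.44-fold, and 3 of these 4 genes (Saa3, Lcn2 and Serpina3n) were also higher after O3 in Nfkb1-deficient mice, by 2.06-fold to 2.73-fold. Saa3 and Lrg1 were higher in Nfkb1-deficient than in wild-type mice in air, by 8.12-fold and 2.24-fold, and Saa3 alone among the 7 was higher in Nfkb1-deficient mice after O3, by 3.78-fold. No call was made for Hp, Cp or Orm1 in any comparison. These calls come from limma, a linear model fitted to all genes at once, and required a Benjamini-Hochberg adjusted p under 0.05 over the 17569 genes. Called as higher were 2 of 7 genes for genotype in air, against 0.256% of all genes. The count was 1 of 7 for genotype after O3, against 0.552% of all genes. For O3 it was 4 of 7 in wild-type mice, against 3.16%, and 3 of 7 in Nfkb1-deficient mice, against 3.35%. None of the 7 was called lower, where the shares of all genes were 0.0854% for genotype in air, 0.171% for genotype after O3, 2.24% for O3 in wild-type mice and 2.83% for O3 in Nfkb1-deficient mice. The median log2 difference of the 7 genes was 0.52 for genotype in air, 0.14 for genotype after O3, 1.54 for O3 in wild-type mice and 0.82 for O3 in Nfkb1-deficient mice, where the medians of all genes lay between -0.03 and 0.00. The comparisons share groups, since WT-Air served for genotype in air and for O3 in wild-type mice, so their values are not independent of each other.

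**Figure D1:**
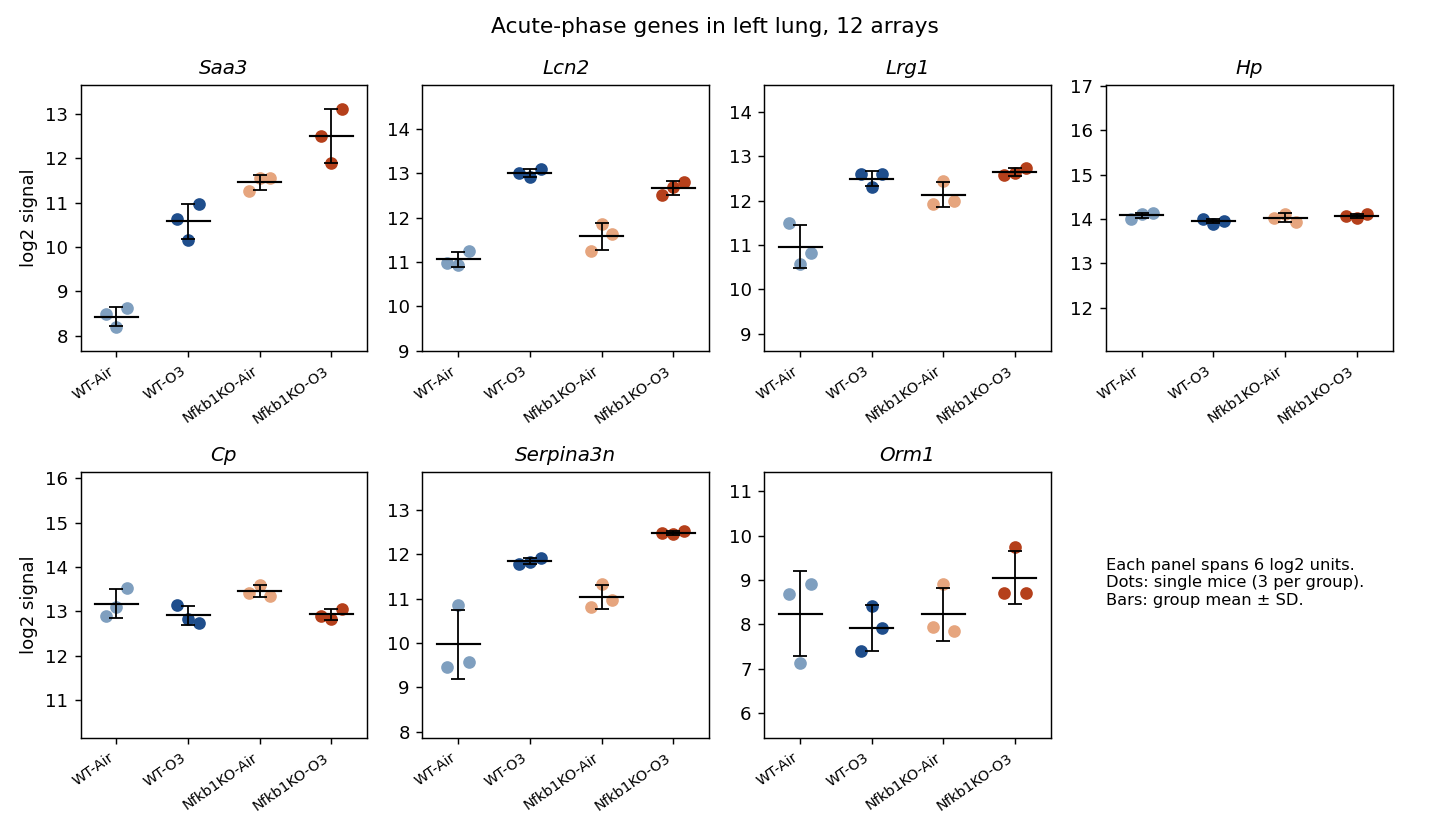
Quantile normalised log2 signal (vertical axis) of the 7 acute-phase genes in each of the 4 groups (horizontal axis), with 1 dot per mouse and the group mean ± SD as bars. Each panel spans the same number of log2 units. Saa3 climbed from a mean of 8.44 in WT-Air to 12.50 in Nfkb1KO-O3 with no overlap between any groups, while all 12 Hp values lay between 13.90 and 14.13.

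The promoters of the 4 genes that were higher after O3 in wild-type mice are shown because these genes shared that call and because acute-phase promoters are known for C/EBP, STAT and NF-κB sites. RefSeq promoter entries (build GRCm38.p6) were found for 5 of the 7 genes, namely Saa3, Lcn2, Lrg1, Cp and Serpina3n. The 250 bases before the annotated start were chr7:46715677-46715926 on the minus strand for Saa3, chr2:32387740-32387989 on the minus strand for Lcn2, chr17:56121947-56122196 on the minus strand for Lrg1 and chr12:104406458-104406707 on the plus strand for Serpina3n. The starts are those of the promoter table. The Saa3 window lies inside the annotated locus (46711998 to 46719615), which begins further upstream on that strand, and the Serpina3n window reaches past the first base of its locus (104406646). The windows are printed 5′ to 3′ in the direction of the gene, and capitals mark matches to the C/EBP motif TTNNGNAA on either strand.
Saa3: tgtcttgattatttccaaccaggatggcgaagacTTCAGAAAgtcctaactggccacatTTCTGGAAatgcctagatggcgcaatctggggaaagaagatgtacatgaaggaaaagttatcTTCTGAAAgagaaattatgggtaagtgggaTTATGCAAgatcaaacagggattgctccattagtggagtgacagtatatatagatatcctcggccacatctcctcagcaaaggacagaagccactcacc
Lcn2: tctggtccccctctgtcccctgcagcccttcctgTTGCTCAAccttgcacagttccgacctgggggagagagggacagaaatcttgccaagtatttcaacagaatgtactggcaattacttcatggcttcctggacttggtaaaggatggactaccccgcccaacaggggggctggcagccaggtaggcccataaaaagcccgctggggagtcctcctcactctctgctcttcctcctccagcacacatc
Lrg1: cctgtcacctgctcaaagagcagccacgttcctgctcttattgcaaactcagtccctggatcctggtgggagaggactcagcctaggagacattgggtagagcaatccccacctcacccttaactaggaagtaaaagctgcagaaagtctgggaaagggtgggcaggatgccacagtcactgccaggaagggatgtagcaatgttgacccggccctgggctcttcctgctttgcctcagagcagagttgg
Serpina3n: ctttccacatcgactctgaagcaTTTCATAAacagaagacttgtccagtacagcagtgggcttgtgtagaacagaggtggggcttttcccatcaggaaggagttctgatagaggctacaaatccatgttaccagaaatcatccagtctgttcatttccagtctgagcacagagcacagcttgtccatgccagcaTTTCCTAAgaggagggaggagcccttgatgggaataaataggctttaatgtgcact
The Saa3 window held 4 C/EBP matches, all on the strand of the gene, between bases -216 and -92 from the start. At least 4 matches were found in 0.591% of the 32851 promoters of the table, and at least 1 in 36.8%. The windows of Serpina3n, Lcn2 and Lrg1 held 2, 1 and 0 matches, and 4 of the 5 genes with an entry, Cp included, held at least 1. The STAT motif TTCNNNGAA, which can overlap the C/EBP motif, and the NF-κB consensus given by the study were each searched on both strands and matched 0 of the 5 genes in these windows, against 7.02% and 5.11% of all promoters. These are matches of letters in a short window and not measured binding. For genes it selected, the study searched its consensus over many kilobases on both sides of the start. NF-κB sites outside the 250 bases were not tested here. The paper counts mouse Lcn2 among genes with functional NF-κB sites, and Saa3 among inflammatory genes with potential or established ones.

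Saa3 (probe set 1450826_a_at) encodes serum amyloid A3, an apolipoprotein that attracts leukocytes and is made outside the liver. Its log2 signal was 8.49, 8.19 and 8.63 in WT-Air, and 10.62, 10.17 and 10.96 in WT-O3. Nfkb1-deficient mice had 11.26, 11.56 and 11.55 in air, and 12.50, 11.89 and 13.11 after O3. The order of the groups was therefore WT-Air, WT-O3, Nfkb1KO-Air and Nfkb1KO-O3, with no overlap between neighbours, and every Nfkb1-deficient mouse in air lay above every wild-type mouse after O3. On the deposited linear scale these values ran from 283 to 399 in WT-Air and from 3947 to 9118 in Nfkb1KO-O3. By genotype, the log2 difference was 3.02 ± 0.26 (SE) in air (8.12-fold, 95% interval 5.47 to 12.1, limma adjusted p = 3.7e-04) and 1.92 ± 0.26 after O3 (3.78-fold, 95% interval 2.55 to 5.61, adjusted p = 0.0032). O3 raised Saa3 by 2.15 ± 0.26 in wild-type mice (4.44-fold, limma adjusted p = 9.6e-04) and by 1.05 ± 0.26 in Nfkb1-deficient mice (2.06-fold, adjusted p = 0.036). The first 3 of these calls held under all 24 alternative settings of the limma fit, but the last was lost under 10 of 24, with adjusted p up to 0.13. For genotype in air the unmoderated test of the study's methods, run on the same values, gave Saa3 an adjusted p of 0.27 in place of limma's call. The O3 call in Nfkb1-deficient mice was lost without WT-O3 replicate 1, any 1 of the Nfkb1KO-Air arrays, or Nfkb1KO-O3 replicate 1 or 3. Without Nfkb1KO-O3 replicate 3, the highest array for Saa3, the O3 difference in Nfkb1-deficient mice was 0.74 (limma adjusted p = 0.11). The difference between the O3 effects in Nfkb1-deficient and wild-type mice was -1.10 ± 0.37 (95% interval -1.91 to -0.30), which did not pass the test (limma adjusted p = 0.78).

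The hepatic paralogs Saa1 and Saa2 had low signals, from about the lower limit of the arrays upwards, which was set at the 20th percentile of signal (log2 4.37). Saa1 lay between 4.39 and 7.19 and Saa2 between 4.36 and 6.68 over the 12 arrays, and neither was called in any comparison. For both genes the highest of the 12 values came from Nfkb1KO-Air replicate 1, an array that stood apart from the rest. The probe sequences were not used here, so cross-hybridisation between Saa genes was not tested.

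Among the members that bind iron, haem or copper, Lcn2 alone rose with O3. Lcn2 (1427747_a_at) encodes lipocalin 2, which captures bacterial siderophores and so withholds iron. Its log2 signal was 10.98, 10.94 and 11.25 in WT-Air, and 13.01, 12.92 and 13.09 in WT-O3. Among Nfkb1-deficient mice it was 11.25, 11.86 and 11.63 in air, and 12.50, 12.69 and 12.81 after O3. All 6 mice after O3 lay above all 6 mice in air. Unlike Saa3, Lcn2 reached its highest level in wild-type mice after O3, where all 3 arrays lay above those of Nfkb1KO-O3. O3 raised Lcn2 by 1.95 ± 0.14 in wild-type mice (3.87-fold, 95% interval 3.13 to 4.78, limma adjusted p = 3.2e-05), the gene with the third smallest p of the 17569. In Nfkb1-deficient mice the O3 difference was 1.09 ± 0.14 (2.12-fold, 95% interval 1.72 to 2.62, limma adjusted p = 0.0016). Both calls held under all 24 alternatives. The genotype differences of Lcn2 were 0.52 ± 0.14 in air (limma adjusted p = 0.17, WT-Air and Nfkb1KO-Air overlapping) and -0.34 ± 0.14 after O3 (adjusted p = 0.43), so neither passed the test. Its O3 effect differed between genotypes by -0.87 ± 0.20 (95% interval -1.30 to -0.44, limma adjusted p = 0.44), which was called only when arrays were weighted by their quality (-0.99, adjusted p = 0.049). Over all genes 0.0342% were called for this genotype by O3 interaction, and 0 of the 7 acute-phase genes were. At an unadjusted limma p under 0.05, 3 of the 7 passed it (Saa3, Lcn2 and Lrg1, all with a smaller O3 difference in Nfkb1-deficient mice), against 6.06% of all genes.

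Hp (1448881_at) encodes haptoglobin, which binds free haemoglobin. Its quantile normalised signal was high and nearly flat, with all 12 arrays between 13.90 and 14.13. Its log2 differences were -0.05 ± 0.07 and 0.11 ± 0.07 for genotype in air and after O3, and -0.13 ± 0.07 and 0.03 ± 0.07 for O3 in wild-type and Nfkb1-deficient mice. All 4 of the 95% intervals lay between -0.28 and 0.26, and limma's adjusted p ran from 0.31 to 0.84. The flatness depended on the normalization. With arrays centred on their medians, the genotype difference in air was -0.41 ± 0.26 (limma adjusted p = 0.57). Over the alternatives the O3 difference in Nfkb1-deficient mice reached 0.47. Hp was called under none of them.

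Cp encodes ceruloplasmin, a copper-carrying ferroxidase. Its brightest probe set (1417494_a_at) had log2 signals of 12.89, 13.09 and 13.53 in WT-Air, and 13.16, 12.83 and 12.75 in WT-O3. In Nfkb1-deficient mice they were 13.41, 13.60 and 13.36 in air, and 12.90, 12.84 and 13.07 after O3. The wild-type groups overlapped, while all 3 Nfkb1KO-O3 arrays lay below all 3 Nfkb1KO-Air arrays. The O3 difference in Nfkb1-deficient mice was -0.52 ± 0.15 (95% interval -0.85 to -0.20), just short of the threshold (limma adjusted p = 0.060), and it passed under 4 of 24 alternatives with adjusted p down to 0.024, among them the fits without WT-Air replicate 1 and without WT-Air replicate 3. With arrays centred on their medians it shrank to -0.06 (limma adjusted p = 0.92). The other Cp differences were 0.29 ± 0.15 for genotype in air, 0.02 ± 0.15 for genotype after O3 and -0.26 ± 0.15 for O3 in wild-type mice (limma adjusted p from 0.38 to 0.99).

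The 8 Cp probe sets did not move alike. For O3 in Nfkb1-deficient mice, 6 of 8 had a log2 difference below 0. The probe set 1417495_x_at had a difference of -0.57 ± 0.14 and was the only one called when every probe set was tested on its own (limma adjusted p = 0.038 over 42559 probe sets). Values of -0.79 ± 0.21 (limma adjusted p = 0.053) and -0.45 ± 0.14 (adjusted p = 0.10) were found for 1455393_at and 1448734_at. The probe sets 1417497_at and 1448735_at went the other way, at 0.15 ± 0.16 and 0.17 ± 0.14. Over the 12 arrays the Pearson correlation with the brightest probe set was 0.95 for 1417495_x_at, 0.92 for 1455393_at and 0.91 for 1448734_at, and it was -0.34 for 1417497_at and -0.55 for 1448735_at. These correlations describe 12 arrays in 4 groups and carry no test. Which Cp transcripts each probe set detects was not analysed here.

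**Figure D2:**
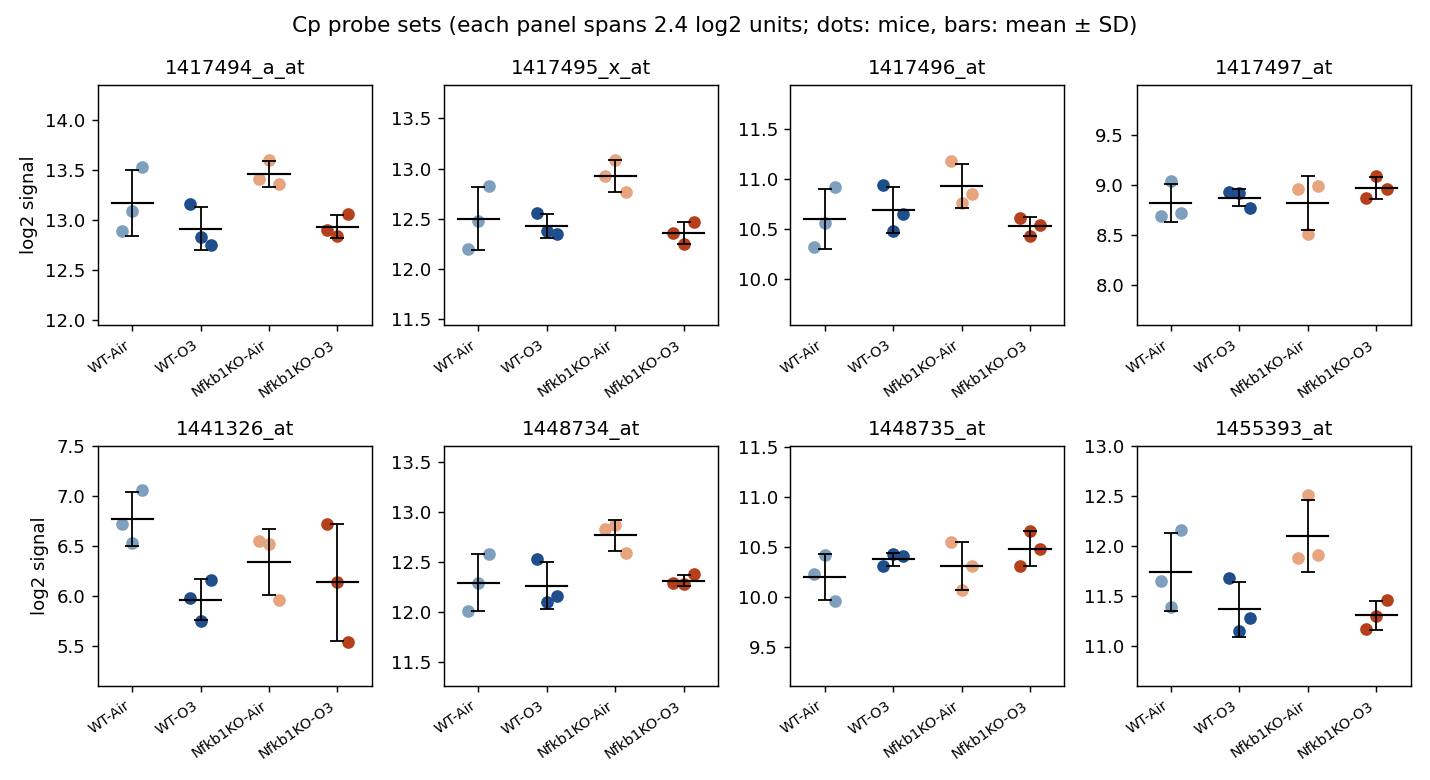
Log2 signal (vertical axis) of the 8 Cp probe sets in each of the 4 groups (horizontal axis), with 1 dot per mouse and the group mean ± SD as bars. In 1417494_a_at, 1417495_x_at, 1417496_at, 1448734_at and 1455393_at the Nfkb1KO-O3 mice lay below the Nfkb1KO-Air mice, while 1417497_at and 1448735_at showed no such drop.

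Serpina3n (1419100_at) encodes a serine protease inhibitor related to human antichymotrypsin, which blocks granzyme B and neutrophil proteases. Its log2 signal was 9.46, 10.87 and 9.58 in WT-Air, and 11.78, 11.83 and 11.92 in WT-O3. Without Nfkb1 it was 10.81, 11.33 and 10.96 in air, and 12.48, 12.44 and 12.53 after O3. The exposed groups were tight and did not overlap with each other or with the air groups, and the widest spread was in WT-Air, where replicate 2 lay apart above the other two. O3 raised Serpina3n by 1.88 ± 0.28 in wild-type mice (3.67-fold, limma adjusted p = 0.0034) and by 1.45 ± 0.28 in Nfkb1-deficient mice (2.73-fold, adjusted p = 0.011), and both calls held under all 24 alternatives. The genotype differences were 1.07 ± 0.28 in air (limma adjusted p = 0.15) and 0.64 ± 0.28 after O3 (adjusted p = 0.47), neither past the threshold. Without WT-Air replicate 2 both were called, at 1.52 (limma adjusted p = 5.7e-04) and 0.64 (adjusted p = 0.024). That array is in neither group of the comparison after O3, where the difference stayed the same and its SE went from 0.28 to 0.12. The difference after O3 was also called when only the groups of that comparison entered the fit (limma adjusted p = 0.0063).

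Lrg1 (1417290_at) encodes leucine-rich alpha-2-glycoprotein 1, a secreted protein that binds the TGF-β co-receptor endoglin. Its log2 signal was 11.51, 10.57 and 10.81 in WT-Air, and 12.59, 12.31 and 12.59 in WT-O3. The Nfkb1-deficient mice had 11.93, 12.45 and 12.00 in air, and 12.57, 12.61 and 12.74 after O3. WT-Air lay below the other 3 groups, and WT-O3 overlapped with both groups of Nfkb1-deficient mice. O3 raised Lrg1 by 1.54 ± 0.20 in wild-type mice (2.90-fold, 95% interval 2.14 to 3.93, limma adjusted p = 0.0017), a call that held under all 24 alternatives. In Nfkb1-deficient mice the O3 difference was 0.51 ± 0.20 (95% interval 0.07 to 0.95), which was not called (limma adjusted p = 0.16) except without WT-Air replicate 1 (adjusted p = 0.049). The genotype difference in air was 1.17 ± 0.20 (2.24-fold, 95% interval 1.66 to 3.04, limma adjusted p = 0.033). That call was lost under 14 of 24 alternatives. Leaving out 1 array ended it for WT-Air replicates 2 and 3, WT-O3 replicates 1 and 3, all 3 Nfkb1KO-Air arrays and Nfkb1KO-O3 replicate 1, with limma adjusted p from 0.050 to 0.11, and centring arrays on their medians gave a difference of 0.87 (adjusted p = 0.49). Without Nfkb1KO-Air replicate 1, the array that stood apart, the Lrg1 difference was 1.27 (limma adjusted p = 0.069). After O3 the genotype difference was 0.14 ± 0.20 (limma adjusted p = 0.90), with a 95% interval from -0.30 to 0.58. The O3 effects differed between genotypes by -1.02 ± 0.29 (95% interval -1.64 to -0.40, limma adjusted p = 0.65).

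Orm1 (1451054_at) encodes orosomucoid 1, a plasma lipocalin that carries drugs and lipids. Its log2 signal was 8.68, 7.14 and 8.90 in WT-Air, and 7.40, 8.43 and 7.92 in WT-O3. In Nfkb1-deficient mice it was 7.93, 8.92 and 7.85 in air, and 8.72, 9.74 and 8.71 after O3. This was the widest scatter within groups among the 7 genes, with an SD of up to 0.96. Only the exposed groups were apart, and their difference by genotype was 1.14 ± 0.46 (95% interval 0.14 to 2.15, limma adjusted p = 0.43). The other differences were -0.01 ± 0.46 for genotype in air, -0.33 ± 0.46 for O3 in wild-type mice and 0.82 ± 0.46 for O3 in Nfkb1-deficient mice. The paralog Orm2, which lay between 3.83 and 6.39, was called for O3 in Nfkb1-deficient mice, with a fitted log2 difference of 1.93 ± 0.44 (limma adjusted p = 0.025), though 2 of the 3 Nfkb1KO-Air arrays lay below the lower limit. Orm3, between 1.59 and 6.69, was not called in any comparison.

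**Figure D3:**
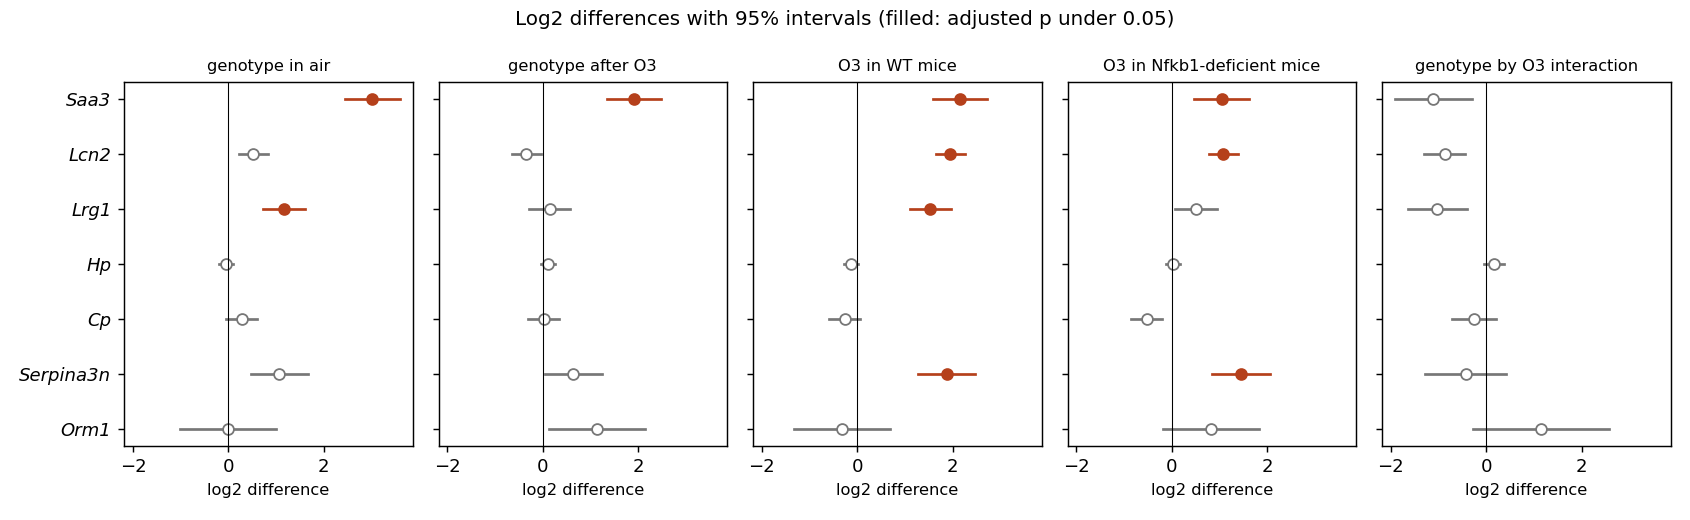
Log2 differences (horizontal axis) of the 7 acute-phase genes (vertical axis) with 95% intervals from limma, in 1 panel for each genotype and O3 comparison and for the interaction between them. Filled points mark an adjusted p under 0.05. The 4 genes called for O3 in wild-type mice had differences from 1.54 (Lrg1) to 2.15 (Saa3), and no gene was called for the interaction.

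Of the other acute-phase genes, metallothioneins were among those that rose with O3, and complement factor B differed by genotype. Of 27 tested genes out of 37 listed, 3 rose in wild-type mice, where 3.16% of all genes did, and 0 fell, with a list median of 0.00 against -0.03 for all genes. These were the metallothioneins Mt2 (1.82 ± 0.14, 3.53-fold, limma adjusted p = 4.4e-05) and Mt1 (0.88 ± 0.16, adjusted p = 0.0095), which bind zinc and copper, and the transferrin receptor Tfrc (0.50 ± 0.10, adjusted p = 0.014). In Nfkb1-deficient mice 2 of 27 rose, against 3.35% of all genes, Mt2 (0.86 ± 0.14, limma adjusted p = 0.0055) and Orm2. For genotype the 1 gene of 27 called in air and after O3 was Cfb, complement factor B of the alternative pathway. Of all genes, 0.256% were higher for genotype in air and 0.552% after O3. Its log2 signal was 9.06, 8.76 and 8.95 in WT-Air, 8.91, 8.91 and 8.95 in WT-O3, 10.19, 9.83 and 9.98 in Nfkb1KO-Air, and 10.12, 9.76 and 9.95 in Nfkb1KO-O3. Cfb therefore separated by genotype while air and O3 mice of each genotype overlapped, and its genotype difference was 1.08 ± 0.13 in air (2.11-fold, limma adjusted p = 0.0032) and 1.02 ± 0.13 after O3 (2.03-fold, adjusted p = 0.0021). Lbp, the lipopolysaccharide-binding protein, had a genotype difference of 1.03 ± 0.20 in air (limma adjusted p = 0.055) and 0.79 ± 0.20 after O3 (adjusted p = 0.13). The list's medians for genotype were 0.53 in air and 0.38 after O3, against -0.01 and 0.00 for all genes. The hepatic genes Crp, Apcs and Fga lay between 1.62 and 6.29 over the 12 arrays and were not called. Other genes of the list had higher signals without a call. Itih4 lay between 9.76 and 11.68, Hamp between 8.11 and 11.57, Alb between 6.27 and 8.57 and Hpx between 6.41 and 8.19.

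Of the cytokines that drive the acute phase, 3 of 9 tested rose with O3 in wild-type mice, against 3.16% of all genes. In Nfkb1-deficient mice 2 of 9 rose, against 3.35%. Il6, the main inducer of the response, had log2 signals of 3.03, 4.11 and 4.21 in WT-Air, all below the lower limit, and 6.88, 7.61 and 7.23 in WT-O3. Nfkb1-deficient mice had 4.85, 5.34 and 5.48 in air, and 8.62, 8.41 and 8.17 after O3. The 4 groups did not overlap and rose in the order WT-Air, Nfkb1KO-Air, WT-O3 and Nfkb1KO-O3. The Serpina3n and Lrg1 means had the same order, while those of Saa3, Lcn2, Hp, Cp and Orm1 did not. O3 raised Il6 at least 7.31-fold in wild-type mice (fitted log2 difference 3.45 ± 0.37, limma adjusted p = 4.9e-04) and by 3.18 ± 0.37 in Nfkb1-deficient mice (adjusted p = 0.001). Il33, an epithelial alarmin, rose in both genotypes (0.71 ± 0.11 and 0.76 ± 0.11, limma adjusted p = 0.0044 and 0.0032), and Lif, an IL-6 family cytokine, rose in wild-type mice (1.24 ± 0.32, adjusted p = 0.045). By limma 0 of the 9 were called for genotype, and at an unadjusted p under 0.05 1 passed in air and 2 after O3, against 11.3% and 9.43% of all genes. Il6 had a genotype difference of 1.16 ± 0.37 after O3 (limma adjusted p = 0.26).

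Of 22 receptors and signalling genes, 3 rose with O3 in each genotype, against 3.16% of all genes in wild-type and 3.35% in Nfkb1-deficient mice. In Nfkb1-deficient mice 1 fell, against 2.83% of all genes. Socs3, the feedback inhibitor of gp130 signalling, had log2 signals of 10.35, 10.33 and 10.26 in WT-Air and 11.69, 11.73 and 11.77 in WT-O3. In Nfkb1-deficient mice it had 10.13, 10.82 and 10.84 in air and 11.97, 11.93 and 12.12 after O3. Its O3 differences were nearly equal, at 1.42 ± 0.15 (limma adjusted p = 4.9e-04) and 1.41 ± 0.15 (adjusted p = 9.3e-04). Bcl3, an IκB protein that binds p50 and p52 dimers, rose in wild-type (0.86 ± 0.19, limma adjusted p = 0.021) and in Nfkb1-deficient mice (0.95 ± 0.19, adjusted p = 0.013). Osmr, the oncostatin M receptor, was called in wild-type mice (0.78 ± 0.12, limma adjusted p = 0.0038) and Cebpd, a C/EBP factor of the acute phase, in Nfkb1-deficient mice (1.50 ± 0.25, adjusted p = 0.0059), where Cebpa fell by 0.64 ± 0.17 (adjusted p = 0.049). In wild-type mice the O3 difference of Cebpa was -0.57 ± 0.17 (limma adjusted p = 0.081). The interactions of Osmr (-0.44 ± 0.17, limma adjusted p = 0.81), Cebpd (0.59 ± 0.36, adjusted p = 0.84) and Cebpa (-0.07 ± 0.25, adjusted p = 0.97) did not pass the test. For genotype limma called 0 of the 22 in air or after O3, and 7 passed an unadjusted p under 0.05 in each, against 11.3% and 9.43% of all genes.

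**Figure D4:**
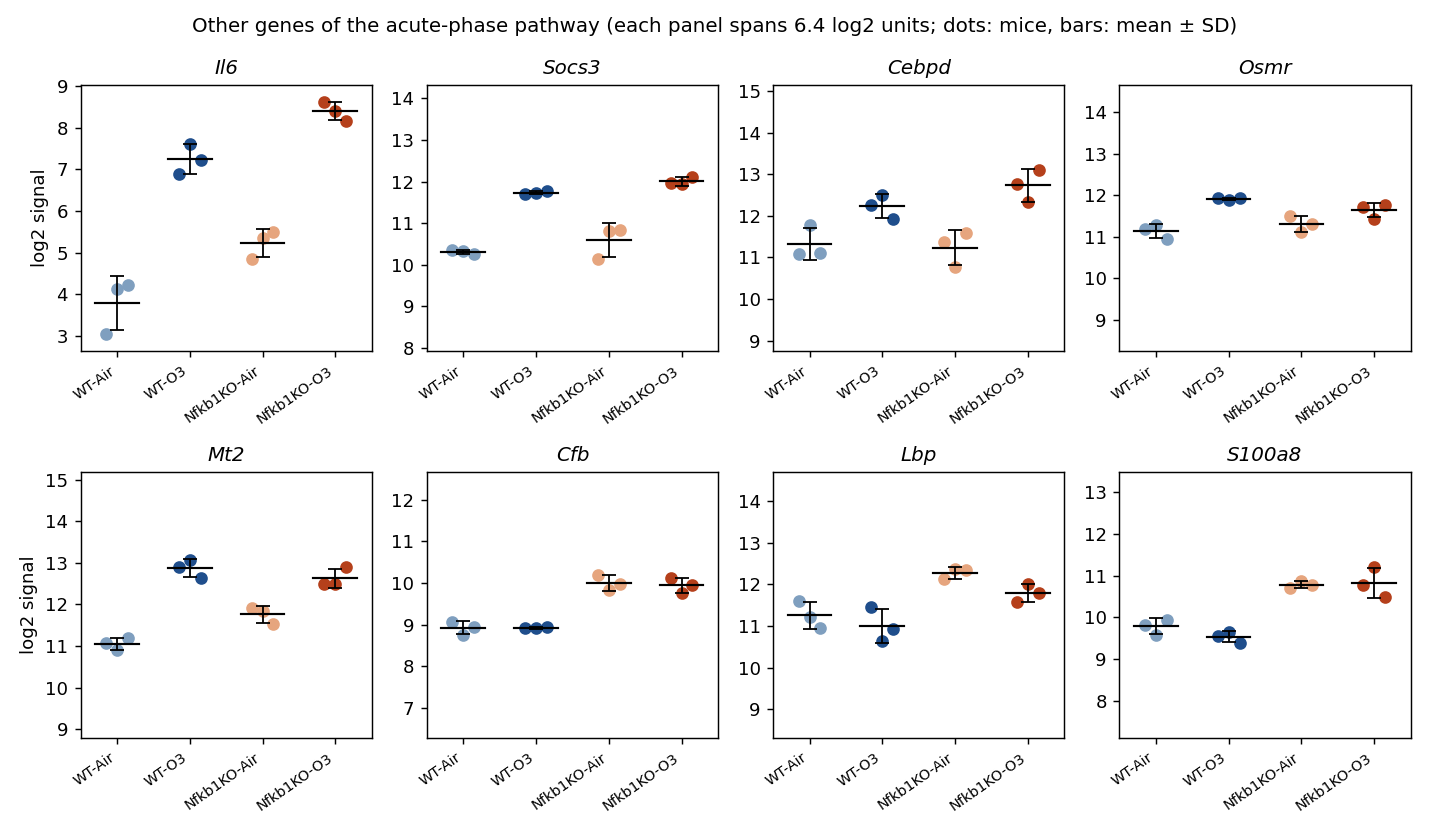
Log2 signal (vertical axis) of 8 genes from the other lists in each of the 4 groups (horizontal axis), with 1 dot per mouse and the group mean ± SD as bars. Il6, Socs3 and Mt2 were called for O3 in both genotypes, while Cfb and S100a8 were called for genotype in air and after O3 and for neither O3 comparison.

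Among 19 tested receptors, ligands and targets of the 7 proteins, Lrp2 (megalin, an endocytic receptor of Lcn2) rose with O3 by 1.03 ± 0.24 in wild-type mice (limma adjusted p = 0.028) and by 1.00 ± 0.24 in Nfkb1-deficient mice (adjusted p = 0.028). Slc22a17, the other Lcn2 receptor, lay between 7.47 and 8.12 on all arrays and was not called. Gzmb, granzyme B and a target of Serpina3n, was higher in Nfkb1-deficient mice by 1.36 ± 0.21 in air (limma adjusted p = 0.017) and 2.68 ± 0.21 after O3 (adjusted p = 2.3e-05), and it fell by 1.01 ± 0.21 with O3 in wild-type mice (adjusted p = 0.018). Fpr2, a receptor for serum amyloid A on phagocytes, was higher by 0.91 ± 0.16 in Nfkb1-deficient mice after O3 (limma adjusted p = 0.020). Tlr2, another serum amyloid A receptor, rose with O3 in Nfkb1-deficient mice (0.67 ± 0.16, limma adjusted p = 0.025). In all, 1 and 2 of the 19 were higher for genotype in air and after O3, against 0.256% and 0.552% of all genes. For O3 in wild-type mice 2 were higher and 1 lower, against 3.16% and 2.24%. For O3 in Nfkb1-deficient mice 3 were higher and 1 lower, against 3.35% and 2.83%.

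Markers of other cell types were set beside these results. The tissue label fitted its markers in level, as the 11 lung epithelial genes summed to 17.39 to 17.60 (log2) on all arrays. The sums of the other marker lists did not exceed 15.80 on any array. Of 11 neutrophil markers tested, 1 was called as higher for genotype in air and 2 after O3, against 0.256% and 0.552% of all genes. S100a8 was higher in Nfkb1-deficient mice by 1.00 ± 0.16 in air (limma adjusted p = 0.020) and 1.30 ± 0.16 after O3 (adjusted p = 0.0015), and S100a9 by 1.41 ± 0.23 after O3 (adjusted p = 0.011). The list's medians were 0.88 in air and 0.86 after O3, and the summed log2 signal ranged from 10.97 to 13.19 in WT-Air, 10.88 to 11.97 in WT-O3, 12.81 to 13.34 in Nfkb1KO-Air and 11.72 to 13.26 in Nfkb1KO-O3. None of the 11 was at or below the lower limit on every array, though Elane lay between 1.70 and 5.46. Ltf, a granule protein, carried much of the spread of this sum and was not called for genotype, with log2 signals of 12.88, 8.40 and 8.32 in WT-Air and 11.97, 12.33 and 12.71 in Nfkb1KO-Air. For O3 the list had a median of 0.06 in wild-type mice with 0 of 11 called by limma. At an unadjusted limma p under 0.05, 1 of 11 passed, against 19.7% of all genes. In Nfkb1-deficient mice 1 of 11 rose with O3, against 3.35% of all genes. Low signals limit some of these markers. Prtn3 lay at 3.71, 3.87 and 4.33 in Nfkb1KO-Air, all below the lower limit, and at 5.78, 5.54 and 5.66 in Nfkb1KO-O3. The part of neutrophils in the genotype and O3 differences of the acute-phase genes was not tested. In bulk lung, more cells of a type and more RNA per cell cannot be told apart.

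Hepatocyte markers (9 tested of 10) had 0 calls in all comparisons by limma. At an unadjusted limma p under 0.05, 0 to 2 genes passed, against 6.06% to 21.5% of all genes. The summed log2 signal of the list ranged from 10.07 to 13.39 with overlap between all groups. Cyp2e1, between 8.90 and 13.29 over the 12 arrays, carried much of this sum, while Alb lay between 6.27 and 8.57. Among 8 alveolar macrophage markers, Marco, a scavenger receptor, was lower in Nfkb1-deficient mice in air (-1.76 ± 0.22, limma adjusted p = 0.0046) and rose with O3 in both genotypes (1.03 ± 0.22 and 1.93 ± 0.22, adjusted p = 0.020 and 0.0010). For O3, 2 of 8 macrophage markers were higher in wild-type mice, against 3.16% of all genes, and 3 of 8 in Nfkb1-deficient mice, against 3.35%. Of the lung epithelial list 1 of 11 was called, Foxj1 of ciliated cells, which fell by 1.04 ± 0.24 with O3 in Nfkb1-deficient mice (limma adjusted p = 0.024). Of 8 endothelial markers, Kdr fell with O3 in both genotypes (-0.58 ± 0.14 and -0.72 ± 0.14, limma adjusted p = 0.034 and 0.012) and Cdh5 in Nfkb1-deficient mice (-0.55 ± 0.15, adjusted p = 0.047). Of all genes, 2.24% fell with O3 in wild-type and 2.83% in Nfkb1-deficient mice. Skeletal muscle markers had 0 of 10 called by limma. At an unadjusted limma p under 0.05, 5 passed for O3 in wild-type mice, against 19.7% of all genes. For the interaction 5 passed, against 6.06%. For genotype 2 passed in air and 2 after O3, against 11.3% and 9.43%. For O3 in Nfkb1-deficient mice 0 passed, against 21.5%. As a list these markers differed between groups, though single arrays varied widely within them. Their log2 sums were 13.16, 10.55 and 15.22 in WT-Air and 11.04, 13.35 and 9.41 in Nfkb1KO-O3. Their median log2 difference was -2.27 for genotype in air and -2.76 for O3 in wild-type mice, with 0 of 10 above 0 in each. It was 1.47 for genotype after O3 and 3.39 for the interaction, with 10 of 10 above 0 in each, and 0.96 for O3 in Nfkb1-deficient mice. Their summed log2 signal lay between 10.55 and 15.22 in WT-Air and between 9.25 and 10.28 in WT-O3, so these groups did not overlap, while Nfkb1KO-Air lay between 10.58 and 11.82 and Nfkb1KO-O3 between 9.41 and 13.35. The part of muscle in the sampled tissue in the differences of the acute-phase genes was not tested.

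Orm1 was lowest in WT-Air replicate 2 and highest in Nfkb1KO-O3 replicate 2. The summed log2 signal of the macrophage list was lowest and highest in those same arrays, at 14.42 and 15.52, but its members disagreed. Fabp4, which adipocytes also express, was 11.19 and 14.50, while Itgax was 9.49 and 8.76. The endothelial sum ran the other way, at 15.80 and 15.02, and the skeletal muscle sum was 10.55 and 13.35. The part of tissue sampling in the scatter of Orm1 was not tested.

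As a description of pattern, the tested genes above the median level whose log2 signal followed Saa3 most closely over the 12 arrays were Agfg2 (Pearson r = 0.95), Ms4a6d (0.94), Rgcc (0.91), Ifit3 (0.91) and Tmem243 (0.90). Those closest to Lcn2 were Wdr77 (0.98), Snx7 (0.97), Npc2 (0.96), Slc6a14 (0.96) and Tmem167 (0.96). The highest of 8778 candidates were taken in each case, and the points share their groups, so no test was attached. The top 5 of Saa3 and of Lcn2 had no gene in common.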

How the data were processed

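RNA of the left lung of 12 male mice was hybridised to 1 Affymetrix Mouse Genome 430 2.0 array each. The intensity values that the authors deposited are MAS5 signals, which average the probe pairs of a probe set after subtraction of mismatch signal, scaled by the authors to a common trimmed mean in Affymetrix Expression Console. Version numbers and detection calls were not given in the sources used here. Such scaling leaves noisy low values, and the number of arrays, not read depth, limits the precision.

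From these values, signals under 1 were set to 1, log2 was taken and arrays were quantile normalised, after 64 Affymetrix control probe sets had been left out. Probe sets above the 20th percentile (log2 4.37) of an array in at least 1 array were kept. Of the 45101 probe sets, 34958 had 1 symbol in the platform annotation, 932 several and 9211 none. Probe sets with exactly 1 symbol named genes, and the brightest over all arrays stood for a gene, which gave 17569 genes.

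Limma 3.58.1 (R 4.3.3) was fitted with 1 mean per group over all 12 arrays, with a trended prior and Benjamini-Hochberg adjustment over all genes (12.6 degrees of freedom). The study's methods name t-tests and a 2-way analysis of variance, and its legends name the t-tests as moderated. Limma gave all comparisons here in their place. The comparisons were genotype within each exposure, O3 within each genotype and their interaction. Errors beside log2 differences are standard errors. A fold against a group below the lower limit on all its arrays is given as a bound. With 3 against 3 mice, a single-gene permutation test could not go below an exact p of 0.1, so none is given. The procedure was tested on simulated data.

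All 7 genes were named, with up to 4 genes of each other list by smallest p, and paralogs and defining markers where a result turned on them. The members and lists were chosen with earlier results of these data known. Promoter sequences came from RefSeq (GRCm38.p6). Alternatives covered normalization, low values, filtering, probe-set choice, spread model, replicate block, samples in the fit, single arrays left out and an ordinary t-test.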

Additional observations from a re-analysis of the deposited data

How the results depend on the processing

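Over the alternatives fitted with limma, 833 log2 differences of the 7 genes were recomputed. The 10 called differences gave 240 of these values, of which 216 stayed called and 24 did not, 14 for Lrg1 by genotype in air and 10 for Saa3 with O3 in Nfkb1-deficient mice. Of the 593 values of differences not called, 10 were called under an alternative, and 14 turned sign with no call in either setting. The number of the 7 genes called for genotype in air was 2, falling to 1 under median centring of the arrays, with the authors' scaling alone, without a trend in the spread, with the replicate block or with only the groups of the comparison, and 1 to 2 with single arrays left out. An ordinary, unmoderated t-test called 2 of the 7 before and 0 after Benjamini-Hochberg adjustment (1182 and 0 of all genes), with Saa3 at an adjusted p of 0.27. For genotype after O3 the count was 1, and it was 2 with only the groups of the comparison and 1 to 2 with single arrays left out, the second being Serpina3n. For O3 in Nfkb1-deficient mice it was 3, with 2 to 5 on leaving out single arrays and 5 without WT-Air replicate 1. For the interaction it was 0, and 1 (Lcn2) with array weights. For O3 in wild-type mice it was 4 under every alternative run. The sample titles give replicate numbers but state no pairing. Of 18 same-numbered pairs, 1 had a correlation of deviations over 0.1, and 0 arrays correlated best with their own number. Whether same-numbered samples shared an exposure run or a batch was not tested. With the replicate block, Lrg1 by genotype in air had a limma adjusted p of 0.070, and no other call of the 7 genes changed. With Nfkb1KO-Air replicate 1 and WT-Air replicate 3 both left out, Lcn2 was called for genotype in air (0.79, limma adjusted p = 0.030).

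Signs turned for differences near 0. With arrays centred on their medians, Cp was -0.029 for genotype in air and 0.15 for the interaction. Orm1 by genotype in air was 0.13 with the authors' scaling alone, 0.49 without Nfkb1KO-Air replicate 1 and WT-Air replicate 3 together, and -0.56 to 0.32 without single arrays. Orm1 with O3 in wild-type mice was 0.0038 without both of those arrays and -0.88 to 0.0022 without single arrays. Cp by genotype after O3 was -0.058 to 0.15, and Hp with O3 in Nfkb1-deficient mice -0.016 to 0.077, without single arrays. The cause of these changes was not tested.

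Over all genes, the number called was 60 for genotype in air (9 to 93 over the alternatives fitted with limma), 127 for genotype after O3 (51 to 395), 949 for O3 in wild-type mice (87 to 1548), 1086 for O3 in Nfkb1-deficient mice (308 to 1747) and 6 for the interaction (0 to 15). Centring on medians moved the median of all genes to -0.20 for genotype in air and to 0.25 for O3 in Nfkb1-deficient mice, and the share of calls that were higher from 58.5% to 87.4% for O3 in wild-type mice and from 54.2% to 93.8% in Nfkb1-deficient mice. Under it, Saa3 with O3 in Nfkb1-deficient mice was 1.50. Probe sets near the lower limit, such as Saa1, Saa2 and Orm2, are limited by signal over background.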
